A study of Mus musculus with 12 samples.

Results

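Cholesterol and fatty acid synthesis genes were examined in CD4+ T cells that differed in cell state and in their history of GM-CSF expression. The set held 28 genes given by name, and all 28 were found among the 17523 genes of the table through their symbols and Entrez identifiers. By role, 7 belonged to the mevalonate pathway, 9 to the steps from squalene to cholesterol, 4 to SREBP control, 7 to fatty acid synthesis, and the remaining member, Stard4, encodes a sterol carrier. All 28 passed the filter on low values, set at a level of 5 or more in 3 or more libraries, which left 15587 genes to test.

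The libraries came from the spleens of C57BL/6 Gr/fr mice, which carry a GM-CSF reporter and fate reporter. In these mice Csf2, the gene of GM-CSF, drives BFP and a Cre recombinase, and Cre switches on YFP from the Rosa26 locus for good. YFP+ cells have therefore expressed GM-CSF at some time, while YFP- cells had not switched the reporter on. All groups carried the same alleles and none came from immunized mice. In all, 4 groups were sorted, each with 3 libraries: naive (CD62L+CD44-) YFP-, naive YFP+, effector memory (TEM, CD62L-CD44hi) YFP- and TEM YFP+. The sort used mice at n = 3, but the age and sex of the animals behind each library, whether animals were pooled and whether the libraries of 1 number came from 1 mouse were not given in the sources used here, so p-values measure the spread between these libraries.

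Cholesterol is built from acetyl-CoA through mevalonate, farnesyl diphosphate, squalene and lanosterol. When membrane sterol is low, Scap escorts the transcription factor SREBP out of the endoplasmic reticulum, SREBP is cleaved, and its fragment raises transcription of most enzymes of the route; Insig1 holds Scap back when sterol is plentiful. Fatty acids are made from the same acetyl-CoA by Acly, Acaca and Fasn, and are then lengthened by elongases and desaturated by Scd enzymes. T cells draw on both routes for new membrane when they grow and divide after activation.

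Each library held 40974124 to 57822269 reads on genes, and the 28 genes together took 0.157 to 0.19% of them. Levels are given as normalized counts, that is reads divided by a size factor of the library, and they are not corrected for gene length. The sort was visible in Cd44, a gene of the sort, which stood at 2334 to 3372 in the naive and 21778 to 29383 in the TEM libraries. Markers of other cells were also present. The summed level of 6 conventional dendritic cell markers was 76.0 to 350.2 in the naive, 9205 to 19012 in the TEM YFP- and 502 to 1129 in the TEM YFP+ libraries, and that of 7 plasmacytoid dendritic cell markers was 661 to 1447, 7836.6 to 15874 and 2825 to 5759. The 6 B cell markers summed to 480.3 to 1610 in the naive, 409 to 497 in the TEM YFP- and 331 to 862 in the TEM YFP+ libraries. The naive YFP+ library 2 stood apart with the highest B cell sum and with a sum of 3223 over 7 myeloid markers, against 85.2 to 563 in the other naive libraries; this myeloid sum was 4615 to 8778 in TEM YFP- and 1636 to 3331 in TEM YFP+ libraries. The 4 NK cell markers in the table summed to 241 to 351 in the naive, 618 to 838 in the TEM YFP- and 1376 to 2084 in the TEM YFP+ libraries. These sums hide genes that go the other way. Between YFP+ and YFP- TEM cells, 3 of 6 tested myeloid markers had a positive and 3 a negative log2 difference. The split was 1 and 6 for plasmacytoid, 0 and 6 for conventional dendritic, 5 and 1 for B and 3 and 1 for NK cell markers. In sorted bulk samples, fewer cells of a type and less RNA per cell cannot be told apart, and the part of these other cells in the differences of the 28 genes was not tested.

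The members spanned a wide range of expression. Per kilobase of exonic length, the mean over the 12 libraries was highest for Acly, the enzyme that makes cytosolic acetyl-CoA, at 3072 normalized counts per kilobase, and for Srebf2, which encodes the SREBP that mainly serves cholesterol synthesis, at 3009. Srebf1 at 1522 and Scap at 1237 followed. Scd1 had the lowest level, with 38.0 normalized counts per kilobase, followed by Hsd17b7 at 72.6 and Lss at 132. The control genes of the pathway thus stood among the most abundant members, and Scd2 at 992 was far above its close relative Scd1.

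**Figure D1:**
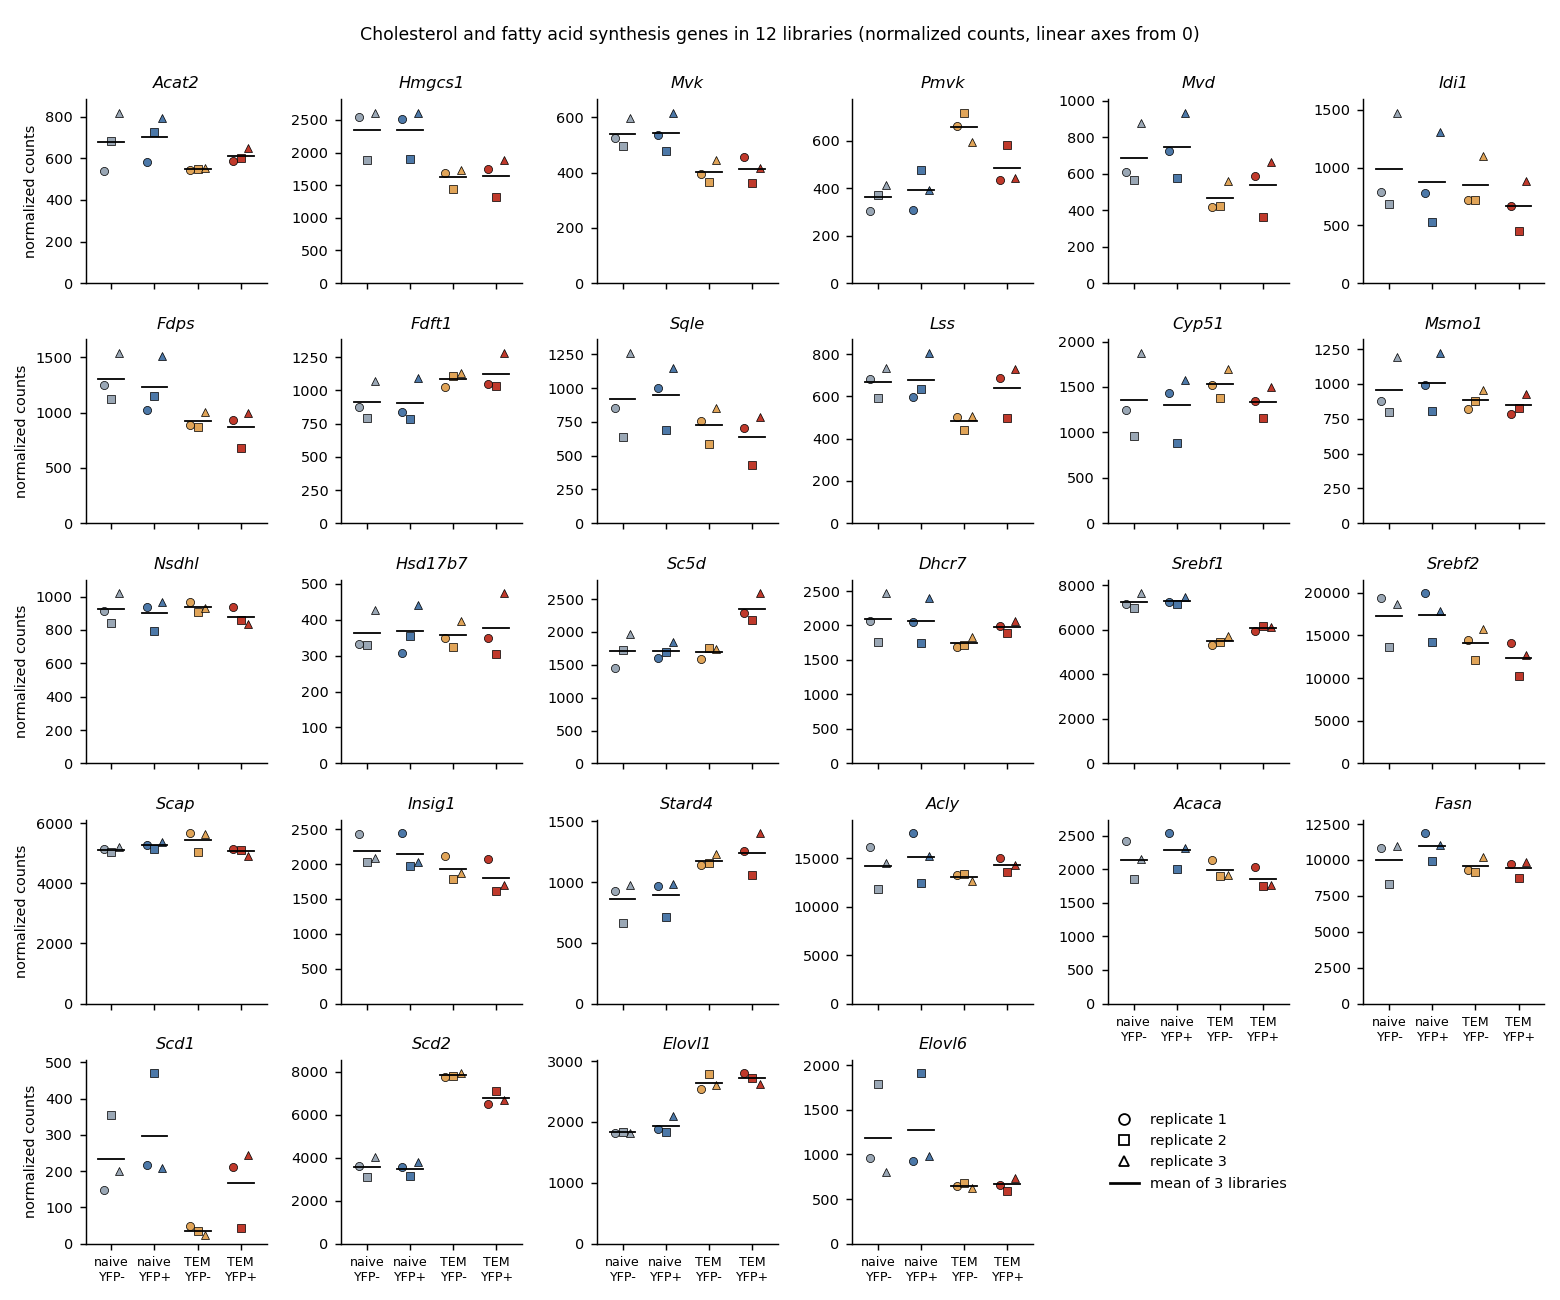
Normalized counts of each of the 28 genes in the 12 libraries, on linear axes from 0, with the 4 groups on the x axis, a symbol for each replicate number and a line at the mean of 3 libraries. Scd2, Elovl1 and Stard4 are higher in all TEM than in all naive libraries, Hmgcs1, Mvk, Fdps, Srebf1 and Elovl6 are lower, and Sc5d is highest in the 3 TEM YFP+ libraries.

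Promoter sequence was looked at because genes of these routes are known targets of SREBP. RefSeq promoter windows on GRCm38.p6, from 250 bases before to 50 after a transcript start, were found for 22 of the 28 genes. The letters TCACNCCAC, a form of the sterol regulatory element read on both strands, occurred in the window of 1 of the 22, Hmgcs1 (4.55%), and in 1.44% of 27025 genes with a window. CCAAT, the letters bound by the SREBP partner NF-Y, occurred in 18 of 22 members (81.82%) and in 41.06% of all genes, and GGGCGG, the letters bound by Sp1, in 18 of 22 (81.82%) and 38.2%. The 27025 genes are all those with a window, not only the genes tested here. The 250 bases before the start are printed for 4 members that differed in their changes: Hmgcs1 and Mvk were lower in TEM cells, Sc5d was higher in YFP+ TEM cells, and Elovl6 had none of the 3 motifs. Capitals mark matches to the 3 motifs on either strand (ATTGG and CCGCCC are the reverse complements of CCAAT and GGGCGG), and positions are given on GRCm38.p6. A match is only a description of the letters.
Hmgcs1, chr13:119690101-119690350, plus strand: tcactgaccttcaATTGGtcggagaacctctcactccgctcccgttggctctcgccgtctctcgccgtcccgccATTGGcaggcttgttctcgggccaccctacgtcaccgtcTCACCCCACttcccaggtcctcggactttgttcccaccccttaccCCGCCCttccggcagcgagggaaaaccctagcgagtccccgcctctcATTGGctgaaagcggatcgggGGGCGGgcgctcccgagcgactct
Mvk, chr5:114444019-114444268, plus strand: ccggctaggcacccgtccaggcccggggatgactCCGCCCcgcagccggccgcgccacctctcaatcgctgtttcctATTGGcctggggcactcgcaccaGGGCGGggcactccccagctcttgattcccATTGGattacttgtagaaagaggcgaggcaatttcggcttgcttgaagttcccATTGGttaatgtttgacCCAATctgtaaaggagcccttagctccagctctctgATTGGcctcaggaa
Sc5d, chr9:42264301-42264550, minus strand: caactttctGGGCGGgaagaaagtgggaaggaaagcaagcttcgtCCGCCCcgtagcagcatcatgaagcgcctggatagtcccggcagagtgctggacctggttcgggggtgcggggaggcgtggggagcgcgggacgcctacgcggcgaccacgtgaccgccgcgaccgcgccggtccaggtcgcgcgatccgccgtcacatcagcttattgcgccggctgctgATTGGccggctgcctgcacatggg
Elovl6, chr3:129532136-129532385, plus strand: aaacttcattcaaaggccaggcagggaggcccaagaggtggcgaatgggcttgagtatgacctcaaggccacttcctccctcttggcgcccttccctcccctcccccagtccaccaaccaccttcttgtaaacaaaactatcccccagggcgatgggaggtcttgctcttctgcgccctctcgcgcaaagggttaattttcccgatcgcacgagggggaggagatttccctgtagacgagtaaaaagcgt

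The first comparison asked whether these genes differ between TEM and naive cells, averaged over YFP status. Of the 28 genes, 6 were higher (21.4%) and 9 lower (32.1%) in TEM cells at an adjusted p of 0.05 or less by limma, against 34.2% higher and 25.4% lower among all 15587 genes tested. The remaining 13 did not pass. The median log2 fold change of the members was -0.18, and that of all tested genes was 0.04. Fold changes are given on the log2(normalized count + 1) scale with the standard error of the fit. Quantile normalization, which moved the median of all genes to -0.16, gave 3 higher and 16 lower, where 26.3% and 42.8% of all tested genes were so called. With the replicate number as a block the members that fell were 16, where 29.9% of all tested genes did. In 8 of 28 genes the 6 TEM libraries did not overlap the 6 naive libraries, 3 of them higher and 5 lower, where 21.9% and 15.0% of all tested genes were separated in this way.

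**Figure D2:**
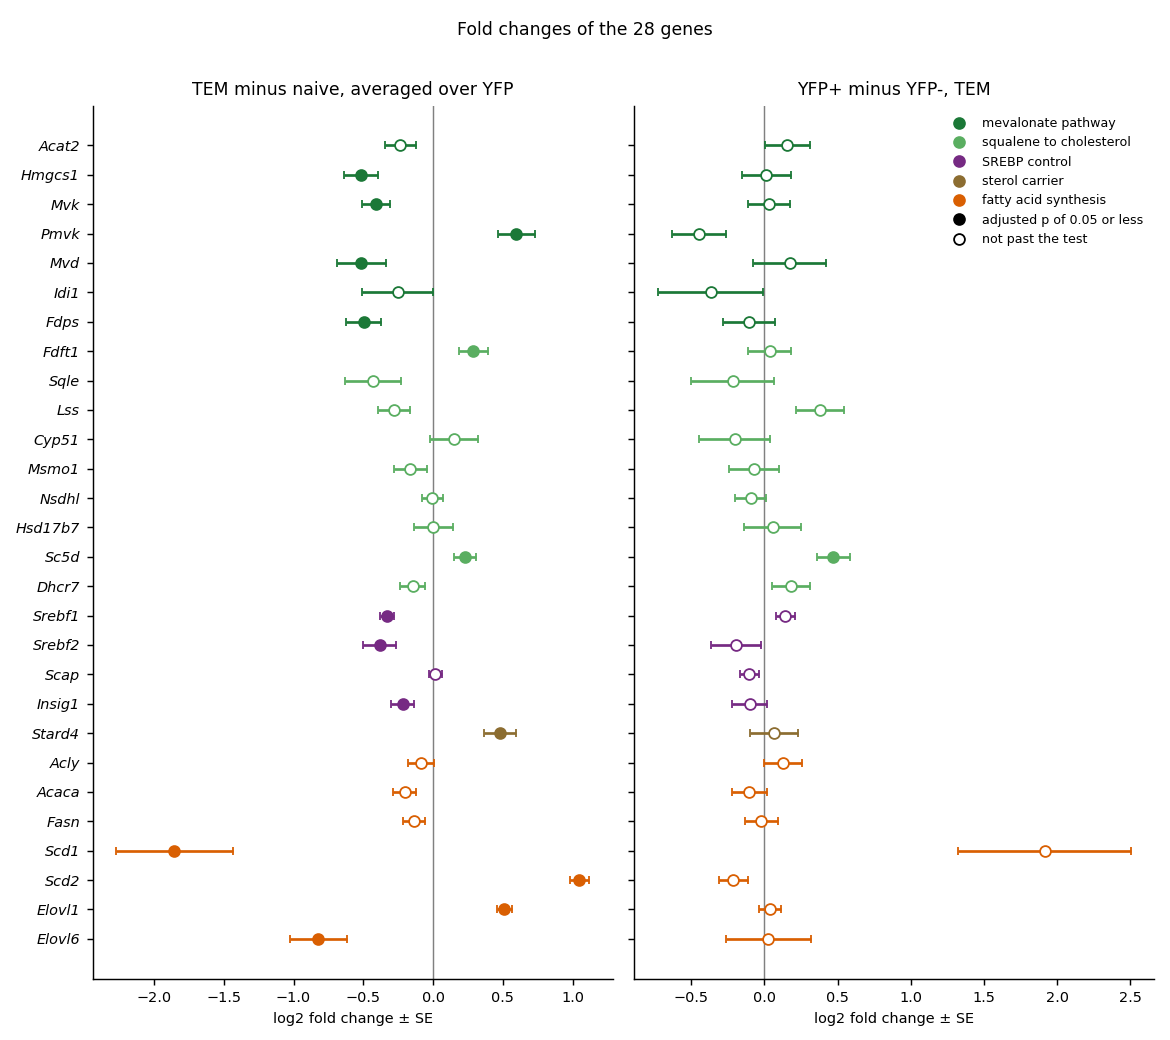
Log2 fold change (x axis) and its standard error for each of the 28 genes, for TEM minus naive cells averaged over YFP status (left) and for YFP+ minus YFP- TEM cells (right), coloured by role. Filled points passed an adjusted p of 0.05 by limma: 15 genes on the left, from -1.85 for Scd1 to 1.05 for Scd2, and only Sc5d at 0.47 on the right.

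In the mevalonate pathway, 4 of 7 genes fell (57.1%) and 1 rose (14.3%) in TEM cells, beside 25.4% and 34.2% of all tested genes. Hmgcs1 encodes the synthase that commits acetyl-CoA units to mevalonate. It stood at 2543, 1890 and 2609 normalized counts in naive YFP- libraries 1, 2 and 3, at 2520, 1896 and 2605 in naive YFP+, at 1682, 1447 and 1729 in TEM YFP- and at 1747, 1315 and 1883 in TEM YFP+ libraries. Every TEM library was below every naive library, and within each group library 2 was the lowest. Hmgcs1 was 1.43-fold lower in TEM cells (log2 fold change -0.52, SE 0.12, adjusted p = 0.00232).

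Mvk, which phosphorylates mevalonate, had a lowest, median and highest value of 479, 531 and 617 in the 6 naive libraries and of 361, 406 and 455 in the 6 TEM libraries. It fell by 0.41 on the log2 scale (adjusted p = 0.00374), with no overlap between the states. Fdps, which makes farnesyl diphosphate, fell by 0.50 (adjusted p = 0.00417) from a median of 1201 to 910, again without overlap. Mvd, which makes isopentenyl diphosphate, fell by 0.51 (adjusted p = 0.0238). Its ranges of 567 to 933 and 365 to 663 overlapped, but each TEM library was below the naive library with the same number and YFP status in 6 of 6 pairs. Here and below such pairs are description only. Same-numbered naive and TEM YFP+ libraries did not all correlate above 0.1. How many of all tested genes were lower in 6 of 6 pairs was not counted. The Mvd call was lost without naive YFP- library 3, naive YFP+ library 3, TEM YFP- library 1 or 2 or TEM YFP+ library 2, with adjusted p of 0.0528 to 0.0634.

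Pmvk, the kinase that acts between Mvk and Mvd, went the other way. It stood at 303, 372 and 414 in naive YFP-, 308, 477 and 393 in naive YFP+, 664, 719 and 597 in TEM YFP- and 436, 583 and 445 in TEM YFP+ libraries. The rise was 1.51-fold (log2 fold change 0.60, SE 0.13, adjusted p = 0.00168), and all TEM YFP- libraries were above all others. Under quantile normalization the Pmvk difference was 0.21 with an adjusted p of 0.128. Acat2 (-0.23, adjusted p = 0.0827) and Idi1 (-0.25, adjusted p = 0.412) did not pass, and Idi1 varied widely, from 531 to 1473 among naive libraries. The values of Acat2 and Idi1 are uncertain where reads could be shared with their copies Acat3 (92.1 to 159) and Idi2 (0 to 7.08).

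From squalene to cholesterol, 2 of 9 genes rose (22.2%) and none passed as lower, beside 34.2% and 25.4% of all tested genes. Fdft1, the squalene synthase, rose by 0.29 on the log2 scale (SE 0.10, adjusted p = 0.0298) from a median of 857 to 1077. The annotated Fdft1 and Ctsb genes, the latter of a lysosomal protease, overlap by 774 bases, and whether reads were counted by strand was not given in the sources used here. Ctsb itself ran from 8524 to 11481 in naive and from 22439 to 33431 in TEM libraries, and its part in the Fdft1 result was not tested. The Fdft1 call was lost with quantile normalization (0.13, adjusted p = 0.268), by edgeR (adjusted p = 0.0672) and without libraries 2 of every group (adjusted p = 0.177). It was also lost without naive YFP- library 1 or 2, naive YFP+ library 1 or 2, TEM YFP- library 2 or 3 or TEM YFP+ library 3, with adjusted p of 0.0566 to 0.0773.

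Sc5d, which introduces the delta-5 double bond late in the route, rose by 0.23 (adjusted p = 0.0271) in the average, and its values are given with the YFP comparison. Its mean was 1708 in naive YFP- and 1693 in TEM YFP- libraries, against 1712 in naive YFP+ and 2353 in TEM YFP+ libraries. The Sc5d call in the average was lost with TMM, quantile normalization and edgeR, without libraries 2 of every group (adjusted p = 0.0995), and without naive YFP- library 1, naive YFP+ library 1, TEM YFP- library 2 or 3 or TEM YFP+ library 3 (adjusted p of 0.0566 to 0.0706). Sqle, the rate-limiting epoxidase, had a log2 difference of -0.43 (SE 0.20, adjusted p = 0.0827) and was lower in 6 of 6 same-numbered pairs. Lss, the lanosterol synthase, had -0.28 (adjusted p = 0.0545). Cyp51 (0.15), Msmo1 (-0.16), Nsdhl (-0.01), Hsd17b7 (0.00) and Dhcr7 (-0.15) had adjusted p from 0.188 for Dhcr7 to 0.99 for Hsd17b7. For Nsdhl the 95% interval of the log2 difference ran from -0.17 to 0.16.

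Of the 4 control genes, 3 fell (75.0%) and none rose, beside 25.4% and 34.2% of all tested genes. Srebf1, which encodes the SREBP forms that mainly serve fatty acid synthesis, stood at 7167, 6975 and 7653 in naive YFP-, 7258, 7157 and 7500 in naive YFP+, 5308, 5478 and 5744 in TEM YFP- and 5967, 6159 and 6139 in TEM YFP+ libraries. The states did not overlap, and neither did the YFP fractions of TEM cells. The fall was 1.26-fold (log2 fold change -0.33, SE 0.05, adjusted p = 5.33e-05). The annotated gene overlaps by 114 bases with Rai1, which ran from 7202 to 8996 in naive and from 4448 to 5710 in TEM libraries.

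Srebf2 stood at 19342, 13703 and 18719 in naive YFP-, 19963, 14281 and 17814 in naive YFP+, 14478, 12113 and 15794 in TEM YFP- and 14128, 10252 and 12731 in TEM YFP+ libraries. It fell 1.30-fold (log2 fold change -0.38, SE 0.12, adjusted p = 0.0153); the low naive libraries, both numbered 2, overlapped the TEM range. Insig1 stood at 2435, 2035 and 2090 in naive YFP-, 2441, 1971 and 2025 in naive YFP+, 2109, 1789 and 1871 in TEM YFP- and 2078, 1620 and 1705 in TEM YFP+ libraries. It was lower in 6 of 6 same-numbered pairs and fell by 0.22 (adjusted p = 0.0414), a call that was lost without naive YFP- library 1 or 3, naive YFP+ library 1, TEM YFP- library 2 or 3 or TEM YFP+ library 2 or 3 (Insig1 adjusted p of 0.0518 to 0.0998). The Insig1 call was also lost without libraries 2 of every group (0.116) and in the fit without a trend of variance with level (0.0698).

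Scap stood at 5144, 5033 and 5214 in naive YFP-, 5272, 5138 and 5383 in naive YFP+, 5670, 5035 and 5631 in TEM YFP- and 5156, 5129 and 4924 in TEM YFP+ libraries. The groups overlapped throughout, and the log2 difference of 0.01 (adjusted p = 0.809) had a 95% interval from -0.09 to 0.12. Stard4, which moves cholesterol between membranes, rose 1.39-fold (log2 fold change 0.48, SE 0.12, adjusted p = 0.00349). Its naive libraries ranged from 667 to 988 and its TEM libraries from 1062 to 1402, without overlap.

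Among the 7 fatty acid synthesis genes, 2 rose and 2 fell (28.6% each), beside 34.2% and 25.4% of all tested genes. Scd2, a stearoyl-CoA desaturase that makes monounsaturated fatty acids, had the largest rise of the 28. It stood at 3620, 3094 and 4012 in naive YFP-, 3541, 3145 and 3786 in naive YFP+, 7761, 7793 and 7909 in TEM YFP- and 6489, 7083 and 6694 in TEM YFP+ libraries. The lowest TEM library was above the highest naive library by more than the whole naive range. The rise was 2.07-fold (log2 fold change 1.05, SE 0.07, adjusted p = 6.41e-08).

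Elovl1, an elongase of very long saturated fatty acids, stood at 1823, 1839 and 1817 in naive YFP-, 1890, 1829 and 2103 in naive YFP+, 2543, 2781 and 2610 in TEM YFP- and 2795, 2729 and 2624 in TEM YFP+ libraries. It rose 1.42-fold (log2 fold change 0.51, SE 0.05, adjusted p = 3.43e-06), and the states did not overlap. The annotated Elovl1 gene overlaps by 53 bases with Cdc20, a mitotic gene that ran from 123 to 160 in naive and from 740.1 to 1389 in TEM libraries, and the part of those reads was not tested.

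Elovl6, which lengthens palmitate to stearate, stood at 963, 1786 and 804 in naive YFP-, 929, 1907 and 984 in naive YFP+, 645.5, 674 and 625 in TEM YFP- and 659, 591 and 740.5 in TEM YFP+ libraries. Naive libraries numbered 2 were far above the other naive libraries, and all 6 naive libraries were above all TEM libraries. The fall was 1.77-fold (log2 fold change -0.82, SE 0.21, adjusted p = 0.00408). Without the libraries numbered 2 of every group, a fit added after the values were seen, Elovl6 still passed with a log2 fold change of -0.46.

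Scd1 stood at 149, 355 and 200.4 in naive YFP-, 216, 469 and 208 in naive YFP+, 49.2, 34.8 and 23.4 in TEM YFP- and 210.3, 44.5 and 243 in TEM YFP+ libraries. It was 3.61-fold lower in TEM cells (log2 fold change -1.85, SE 0.42, adjusted p = 0.00197), although TEM YFP+ libraries 1 and 3 lay within the naive range. A B cell marker was also high in the naive libraries numbered 2 and in TEM YFP+ libraries 1 and 3, and low in the other TEM libraries. Ms4a1, which encodes CD20, stood at 70.3, 179 and 115 in naive YFP-, 75.4, 225 and 115 in naive YFP+, 9.84, 37.1 and 19.4 in TEM YFP- and 142, 34.2 and 128 in TEM YFP+ libraries. The list of 6 B cell markers did not move as one: 4 were lower in TEM cells, while Cd79b stood at 123 to 288 in naive, at 335, 276 and 420 in TEM YFP- and at 167 to 266 in TEM YFP+ libraries and was higher (log2 fold change 0.71, adjusted p = 0.0274). The share of Scd1 reads that came from B cells was not tested. The counts of Scd1 and Scd2, and of Scd4 (13.6 to 50.7) and Scd3 (0 to 3.94), are uncertain where reads fit more than 1 copy.

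**Figure D3:**
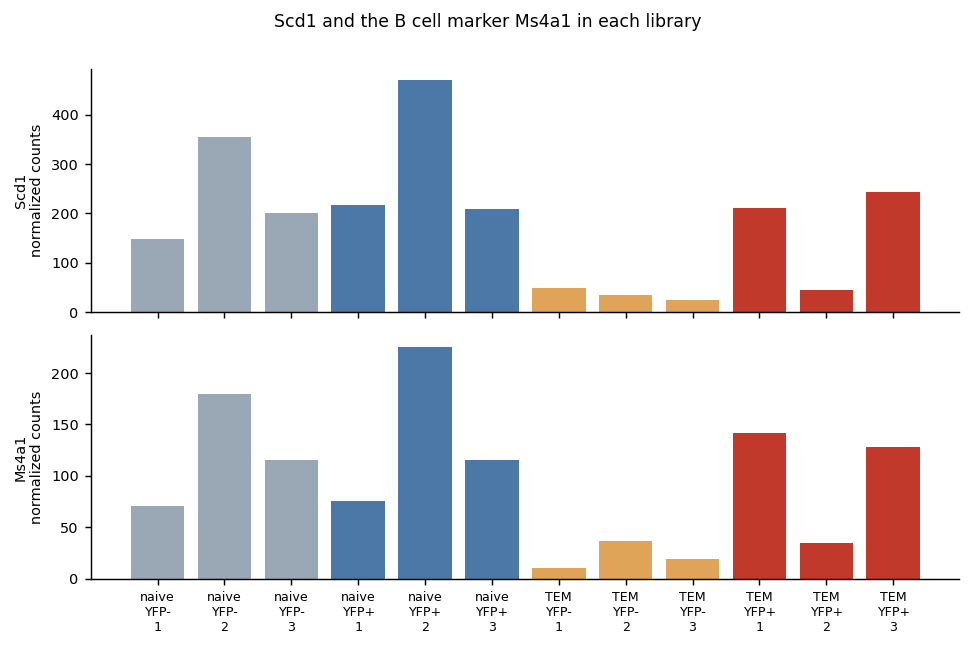
Normalized counts of Scd1 and of the B cell marker Ms4a1 (bars from 0) in each of the 12 libraries, coloured by group. In both panels the naive libraries numbered 2 are the highest of their group, the TEM YFP- libraries are low, and TEM YFP+ library 2 lies far below TEM YFP+ libraries 1 and 3.

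The 3 genes of the trunk of fatty acid synthesis did not pass. Acly had a log2 difference of -0.09 (SE 0.09, adjusted p = 0.439), Acaca of -0.20 (SE 0.08, adjusted p = 0.0509) and Fasn of -0.14 (SE 0.08, adjusted p = 0.157). Their 95% intervals ran from -0.29 to 0.11, from -0.38 to -0.02 and from -0.31 to 0.04, all within 0.5 of zero on the log2 scale. Fasn, the fatty acid synthase, had medians of 10873 in naive and 9488 in TEM libraries.

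The same contrast was then made within each YFP fraction, with the same 12-library fit. In YFP- cells, 4 genes rose (Scd2, Pmvk, Elovl1 and Stard4), where 29.9% of all tested genes did, and 7 fell (Scd1, Elovl6, Hmgcs1, Fdps, Lss, Mvk and Srebf1), where 19.9% did. With the replicate number as a block the number that fell in YFP- cells was 12, where 25.3% of all genes did. In YFP+ cells, 4 rose (Scd2, Elovl1, Stard4 and Sc5d; 24.7% of all genes) and 6 fell (Elovl6, Hmgcs1, Fdps, Srebf2, Mvk and Srebf1; 16.7% of all genes). With the block, 12 fell in YFP+ cells, where 22.5% of all genes did. The 2 contrasts use different libraries, and the log2 fold changes for YFP- and YFP+ cells were -0.52 and -0.51 for Hmgcs1, -0.49 and -0.50 for Fdps, -0.42 and -0.40 for Mvk, 0.48 and 0.48 for Stard4, and 1.14 and 0.96 for Scd2. Pmvk rose by 0.87 in YFP- cells (adjusted p = 0.00182) and had 0.32 in YFP+ cells (adjusted p = 0.187).

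Of the 7 that fell in YFP- cells, those that kept the call were 3 without naive YFP- library 1, naive YFP- library 3 or TEM YFP- library 1, and 2 without TEM YFP- library 2. Of the 6 that fell in YFP+ cells, they were 3 without naive YFP+ library 1, 2 without naive YFP+ library 3 and 1 without TEM YFP+ library 2. Srebf1, Scd2 and Elovl1 kept their calls in both fractions in each of the 12 fits. Pmvk in YFP- cells and Sc5d in YFP+ cells kept theirs in all 25 alternatives. Stard4 lost its call in 7 of 25 in YFP- and in 6 of 25 in YFP+ cells. Elovl6 lost it in 7 and 4 of 25. Without naive YFP- library 2 Elovl6 had -0.44 in YFP- cells (adjusted p = 0.183). Without naive YFP+ library 2 it had -0.53 in YFP+ cells (adjusted p = 0.121).

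The interaction tested whether the difference between TEM and naive cells depends on YFP status. None of the 28 genes passed by limma in either direction, where 0.828% and 2.73% of all tested genes did. At an unadjusted p of 0.05 or less there was 1 gene, Sc5d, and edgeR and DESeq2 also called none. With the replicate number as a block, Sc5d had an interaction of 0.46 and an adjusted p of 0.0307. For Pmvk the interaction was -0.55 (SE 0.26, adjusted p = 0.465), so the unequal Pmvk values of the fractions are not shown to differ.

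To find what marks cells with a history of GM-CSF, YFP+ TEM cells were set against YFP- TEM cells. Of the 28 genes, 1 was higher (Sc5d) and 0 were lower, where 2.3% of all tested genes were higher and 4.67% lower. At an unadjusted p of 0.05 or less there were 5 (Sc5d, Scd1, Lss and Srebf1 higher, Pmvk lower), and edgeR and DESeq2 also called none as lower. Without overlap between the fractions stood 5 genes that were higher (Acat2, Sc5d, Dhcr7, Srebf1 and Acly) and 2 that were lower (Pmvk and Scd2), beside 10.6% and 14.3% of all tested genes. The median log2 difference of the members was 0.02, that of all genes -0.01.

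Sc5d stood at 1444, 1719 and 1962 normalized counts in naive YFP-, 1602, 1694 and 1840 in naive YFP+, 1582, 1755 and 1743 in TEM YFP- and 2286, 2183 and 2590 in TEM YFP+ libraries. The YFP+ TEM libraries were the highest of all 12, and the other 9 libraries overlapped. Sc5d was 1.39-fold higher in YFP+ than in YFP- TEM cells (log2 fold change 0.47, SE 0.11, adjusted p = 0.0234). The adjusted p ranged from 0.00211 to 0.112 over the alternatives: the call was lost in the fits without TEM YFP- library 1 or 3 or TEM YFP+ library 1 or 3 (Sc5d adjusted p of 0.0597 to 0.112), in the fit without libraries 2 of every group (0.0834) and in the fit without a trend of variance with level (0.0563). With the replicate block it was 0.00226.

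Scd1 had the largest YFP difference among the 28, 3.77-fold (log2 fold change 1.91, SE 0.59), with an adjusted p of 0.0791. It passed without TEM YFP+ library 2 (2.69, adjusted p = 0.00413), under quantile normalization and by edgeR and DESeq2. The TEM YFP+ libraries with high Scd1 were those with high Ms4a1, as given above. Ms4a1 was picked after its values were seen and did not itself pass in this comparison. Of the 6 B cell markers, Ebf1 and Cd79a passed as higher (33.3%), where 2.3% of all tested genes did. Cd79b went the other way. Pmvk had -0.44 (adjusted p = 0.226), Lss 0.38 (adjusted p = 0.25), Srebf1 0.14 (adjusted p = 0.288) and Scd2 -0.21 (adjusted p = 0.295). For 26 of the 28 genes, all but Idi1 and Scd1, the 95% interval of the log2 difference lay within 1 of zero, and for 18 it lay within 0.5.

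In naive cells 0 of 28 genes differed between YFP+ and YFP- cells by limma in either direction, and 0 had an unadjusted p of 0.05 or less. Among all tested genes 0.00642% (1 gene) were higher and 0.0% lower, and edgeR and DESeq2 called none of the 28. The log2 differences ran from -0.19 for Idi1 to 0.33 for Scd1. The 95% interval lay within 1 of zero for 27 of the 28, all but Scd1, and within 0.5 for 21.

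Other genes of sterol and fatty acid handling gave context. Of 13 tested genes in a list of sterol synthesis, sensing and uptake, 3 were higher and 7 lower in TEM cells. These are 23.1% and 53.8%, beside 34.2% and 25.4% of all tested genes. The largest fall was of Npc2, which exports cholesterol from lysosomes. Npc2 ran from 23073 to 30814 in naive and from 6558 to 8461 in TEM libraries, 3.73-fold lower (log2 fold change -1.90, adjusted p = 2.16e-09). Tmem97 (0.92, adjusted p = 0.000877), which binds Npc1, and Ebp (0.51, adjusted p = 3.68e-05), the sterol isomerase, had the largest rises. Of this list 0 of 13 passed between the YFP fractions of TEM cells, 0 at an unadjusted p of 0.05 or less. Among all tested genes 2.3% were higher and 4.67% lower in that comparison.

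Of 19 tested genes in a list of fatty acid supply, desaturation, elongation and activation, 8 were higher and 3 lower in TEM cells. That is 42.1% and 15.8%, beside 34.2% and 25.4% of all tested genes. Elovl7 fell by 2.18 on the log2 scale, from 191 to 280 in naive to 36.3 to 60.8 in TEM libraries, and Acsl3, an acyl-CoA synthetase, fell by 1.49 (adjusted p = 4.54e-07 and 8.83e-07). The largest fitted rises were of the desaturase Fads2 and the dehydratase Hacd4. In naive libraries both were at 0 to 1.06 except in naive YFP+ library 2, so no fold is given. In TEM YFP- libraries Fads2 stood at 147, 93.4 and 173 and Hacd4 at 64.8, 51.1 and 83.5. In the YFP comparison of TEM cells 1 gene of the list was higher (5.26%) and 3 lower (15.8%). Of all tested genes 2.3% were higher and 4.67% lower. Acss2, which makes acetyl-CoA from acetate, stood at 1215, 1059 and 1055 in YFP- and 2410, 1454 and 1993 in YFP+ TEM libraries, 1.73-fold higher (0.79, adjusted p = 0.0169), and at 3528 to 5030 in the naive libraries. Fads3 stood at 187, 80.8 and 157 in YFP- and at 5.06, 2.07 and 4.75 in YFP+ TEM libraries (log2 fold change -4.82, adjusted p = 0.00335), and Fads2 fell by 3.63 (adjusted p = 0.0352). The Acss2 call was lost without TEM YFP- library 2 or 3 or TEM YFP+ library 1 or 3 (adjusted p of 0.0614 to 0.0767), and with no trend (0.0518), and that of Fads2 without TEM YFP- library 1, 2 or 3 or TEM YFP+ library 2 or 3 (0.0679 to 0.14), with no trend (0.0649) and by edgeR (0.0514). With 0.1 in place of 1 added before the logarithm, the adjusted p was 0.107 for Fads3 and 0.317 for Fads2. The Fads drops fell in the libraries in which the conventional dendritic cell sum dropped from 9205 to 19012 to 502 to 1129, and the part of those cells was not tested.

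Of 9 tested genes in a list of sterol efflux, esterification and oxysterol sensing, 3 were higher and 4 lower in TEM cells. Their shares of 33.3% and 44.4% stand beside 34.2% and 25.4% of all tested genes. Lpcat3, a phospholipid remodelling enzyme, fell by 1.31 on the log2 scale (adjusted p = 1.82e-08), and Mylip, a ubiquitin ligase, by 0.84 (adjusted p = 1.36e-06). Soat1, which esterifies cholesterol for storage, rose by 0.84 (adjusted p = 3.35e-07). In the YFP comparison of TEM cells 2 of the 9 were higher and 2 lower, or 22.2% each. The shares of all tested genes were 2.3% and 4.67%. Abca1, the cholesterol exporter, stood at 791, 647 and 858 in YFP- and 2605, 1307 and 2549 in YFP+ libraries, 2.70-fold higher (log2 fold change 1.43, SE 0.26, adjusted p = 0.00459). Mylip stood at 2129, 2088 and 2149 in YFP- and 3477, 3143 and 3795 in YFP+ libraries, 1.63-fold higher (0.71, SE 0.11, adjusted p = 0.0018). Abca1, Abcg1, Mylip and Lpcat3 are known targets of the oxysterol receptors LXR. Lpcat3 had 0.30 (adjusted p = 0.137) and Abcg1 0.04 (adjusted p = 0.92) in this comparison. Soat1 fell by 0.37 (adjusted p = 0.0328) in YFP+ TEM cells, and its call was lost without any 1 of 5 libraries, TEM YFP- library 1 or 3 or TEM YFP+ library 1, 2 or 3 (0.0833 to 0.164), as well as with TMM, edgeR, no trend, only the libraries compared or without libraries 2 of every group (0.0517 to 0.0713). Cyp27a1, the sterol 27-hydroxylase, stood at 0 to 25.6 in naive libraries, at 631, 320.1 and 817 in TEM YFP- and at 34.4, 20.7 and 55.1 in TEM YFP+ libraries, beside the drop in the dendritic cell sums. Cyp27a1 fell by 3.97 on the log2 scale (adjusted p = 0.0137), a call lost without TEM YFP- library 1 or 3 or TEM YFP+ library 2 (0.0508 to 0.0732) or with 0.1 added before the logarithm (0.161).

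Within the YFP fractions, the sterol list had 3 higher and 5 lower of 13 in YFP- cells and 1 and 3 in YFP+ cells, with Npc2 (-1.94 and -1.86) the largest fall in both. The fatty acid list had 8 higher and 3 lower of 19 in YFP- cells and 4 and 3 in YFP+ cells, with Elovl7 the largest fall in both (-2.39 and -1.96). Hacd3, a dehydratase of fatty acid elongation, had 1.07 and 0.94. The efflux list had 3 higher and 5 lower of 9 in YFP- cells and 2 and 3 in YFP+ cells. Of all tested genes 29.9% were higher and 19.9% lower in YFP- cells, and 24.7% and 16.7% in YFP+ cells. Abca1 fell by 1.24 between naive and TEM YFP- cells (adjusted p = 0.00171) and had 0.33 in YFP+ cells (adjusted p = 0.343).

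**Figure D4:**
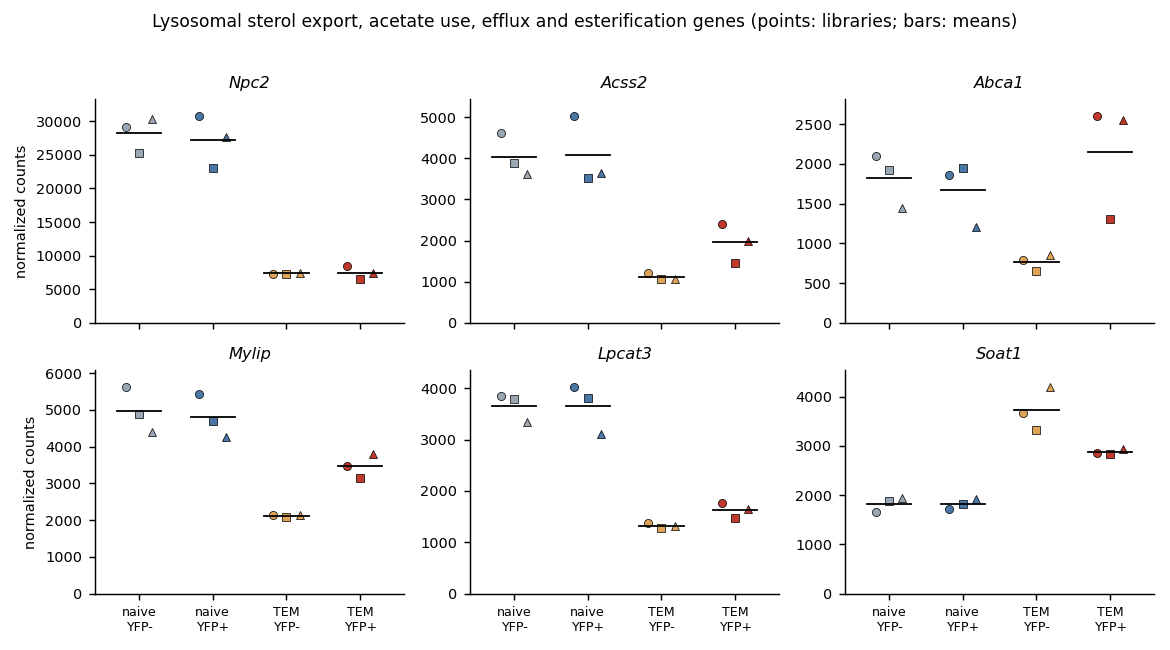
Normalized counts of 6 genes of lysosomal sterol export, acetate use, efflux and esterification in the 12 libraries, on linear axes from 0, with a symbol for each replicate number (circle 1, square 2, triangle 3) and a line at the mean of 3 libraries. Npc2 is low in all TEM libraries, whereas Acss2, Abca1 and Mylip are higher in YFP+ than in YFP- TEM libraries without overlap.

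As a measure of cell state beside these results, 10 of 10 proliferation genes were higher in TEM cells, where 34.2% of all tested genes were. The summed level of these 10 was 7034 to 7785 in the naive, 37986 to 52481 in the TEM YFP- and 26665 to 33246 in the TEM YFP+ libraries. In YFP+ TEM cells 3 of the 10 (Top2a, Rrm2 and Mcm5) were lower, or 30.0%, where 4.67% of all tested genes were. The part of dividing cells in the changes of the 28 genes was not tested.

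Most of the sterol enzymes also varied in step between libraries of the same number, a pattern seen only after the values were known and given here as a description. Of the 16 enzymes of the mevalonate and squalene-to-cholesterol steps, 12 (75.0%) had their highest value in library 3 in each of the 4 groups, against 5.48% of all tested genes. These 12 were Acat2, Cyp51, Dhcr7, Fdft1, Fdps, Hmgcs1, Hsd17b7, Idi1, Lss, Msmo1, Mvd and Sqle. None of the 7 fatty acid synthesis genes did so. Lowest in library 2 in each of the 4 groups were 5 of the 16 enzymes (31.2%) and 2 of the 7 fatty acid genes (28.6%). Of all tested genes 7.35% were. The median deviation of the 16 enzymes from their group means was 0.25, 0.27, 0.11 and 0.19 on the log2 scale in libraries 3 of the naive YFP-, naive YFP+, TEM YFP- and TEM YFP+ groups, and -0.20, -0.18, -0.10 and -0.19 in libraries 2. Over all tested genes the same medians lay between -0.02 and 0.02.

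Idi1, which isomerizes isopentenyl diphosphate, had 792, 689 and 1473 in naive YFP- and 668, 452 and 882 in TEM YFP+ libraries. Sqle had 851, 638 and 1259 in naive YFP- and 706, 430 and 789 in TEM YFP+ libraries. Libraries 3 were set apart in another measure: Ddx3y, on the Y chromosome, stood at 3869 to 4242 in them and at 0 to 1.06 in the others, while Xist stood at 1.86 to 24.7 in them and at 11867 or more in the others. These are levels of male mice in libraries 3 and of female mice in the others, in each of the 4 groups. The main fit has no term for sex or number, so its spread within a group mixes the sexes. Sex, animal and processing cannot be told apart as sources of what sets libraries 3 apart.

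**Figure D5:**
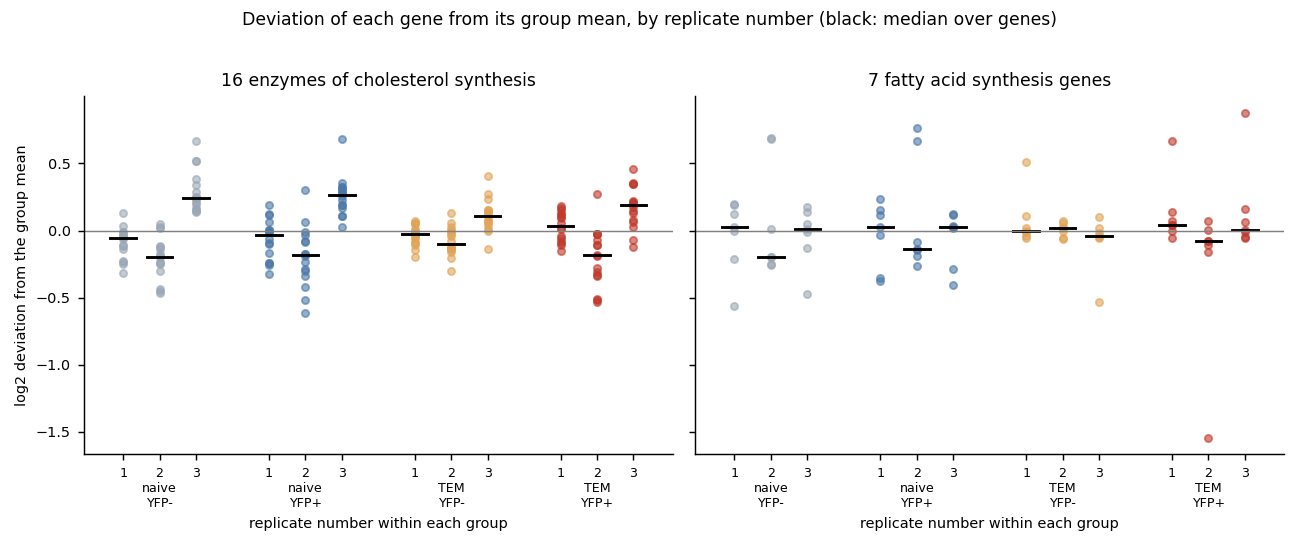
Log2 deviation of each gene from its group mean (y axis) by replicate number within each group (x axis), for the 16 enzymes of cholesterol synthesis (left) and the 7 fatty acid synthesis genes (right), with black lines at the median over genes. On the left the medians of libraries 3 lie at 0.11 to 0.27 and those of libraries 2 at -0.20 to -0.10. On the right the medians of libraries 3 lie at -0.04 to 0.03. Those of libraries 2 lie there at -0.20 in naive YFP-, -0.14 in naive YFP+, 0.02 in TEM YFP- and -0.08 in TEM YFP+.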

How the data were processed

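RNA from FACS-sorted splenic CD4+ T cells was sequenced in 12 libraries, 3 for each of 4 groups. Per the labels and the study's methods, the authors prepared stranded total RNA libraries, mapped reads to mm10 with DRAGEN, counted reads per gene with Rsubread and deposited normalized counts, a signal obtained by dividing reads by DESeq2 size factors. The strand setting and annotation of the counting were not given in the sources used here. Whole reads were recovered for 100% of values (tolerance 0.001), and 40974124 to 57822269 reads per library set the precision. Gene names came from Entrez identifiers, of which 774 had no symbol, and exonic lengths from the reference, for 85.7% of genes.

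Values were tested on log2(normalized count + 1) with limma 3.58.1 (R 4.3.3), as 4 group means with an empirical Bayes trend, 8 residual degrees of freedom and Benjamini-Hochberg adjustment over the 15587 genes that reached a value of 5 in 3 or more libraries. A gene passed at an adjusted p of 0.05 or less. Alternatives were other added constants and filters, quantile and TMM scaling, edgeR 4.0.16 and DESeq2 1.42.0 on the recovered reads, a replicate block, only the libraries compared, no trend, a fold threshold and leaving out each library. Fits without replicate 2 of every group and edgeR with the block were added after seeing the data. The fit was tested on simulated data.

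Numbers 1 to 3 in the labels were checked for pairing by the correlation of deviations from group means. Same-numbered libraries correlated at 0.306 to 0.491 between naive fractions, 0.18 to 0.356 between TEM fractions and 0.137 to 0.232 between naive and TEM YFP- libraries, so these pair by a rule of every pair above 0.1. Naive and TEM YFP+ libraries did not meet this rule (-0.0199 to 0.204). The rule does not show them to be unpaired, since libraries 3 had the Ddx3y and Xist levels of male mice in all 4 groups. The main fit leaves the number out. In it 9 members fell in TEM cells on average, where 25.4% of all tested genes did, and with the number as a block 16 fell, where 29.9% did.

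The 28 genes and all lists were chosen with earlier results of these data known. All 28 genes are named, and of each other list up to 2 genes with the largest passing change in each direction in a comparison; other genes named (Abcg1, Lpcat3 between fractions, Hacd3, Ms4a1, Cd79b) and the number pattern were added after their values were seen. Some genes of the lists are not reported here. Annotated Acat2, Mvd, Lss, Insig1 and Acaca also overlap predicted or non-coding genes, whose share of reads was not tested. Promoter sequences are from RefSeq (GRCm38.p6); windows for Sqle, Fdft1, Fdps, Scd1, Scd2 and Stard4 were not used here.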

Additional observations from a re-analysis of the deposited data

Results flagged for a closer look

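The interaction of YFP status and cell state passed by limma for 5 genes of the lists around the 28, and for none of the 28. Among all tested genes 0.828% passed as higher and 2.73% as lower. The interaction was 1.58 on the log2 scale for Abca1 (adjusted p = 0.0362) and 0.75 for Mylip (adjusted p = 0.0196). Both values mean a larger YFP+ minus YFP- difference in TEM than in naive cells. Abca1 ran from 1200 to 2104 in naive libraries with no YFP difference past the test, and Mylip from 4266 to 5631. It was -0.66 for Acsl1 (adjusted p = 0.0291), an acyl-CoA synthetase with 1143, 1065 and 1279 normalized counts in TEM YFP- and 707, 710.4 and 726 in TEM YFP+ libraries. It was -6.75 for Cyp27a1 (adjusted p = 0.0104) and -5.62 for Fads3 (adjusted p = 0.0214). The size of these last values depends on the constant added before the logarithm, since naive libraries were at or near 0, at 0 to 25.6 for Cyp27a1 and 0 to 9.84 for Fads3. The Cyp27a1 interaction kept its call in the 24 alternatives, whereas that of Abca1 was lost in 10, of Acsl1 in 11, and of Mylip and Fads3 in 5 each. In fits that left out 1 library, the adjusted p reached 0.0985 for Abca1 (lost in 8 of 12, all but those without naive YFP- library 3, naive YFP+ library 1 or 2 or TEM YFP+ library 2), 0.0946 for Acsl1 (lost in 9, all but those without naive YFP- library 3, naive YFP+ library 1 or TEM YFP- library 2), 0.0541 for Mylip (without TEM YFP- library 1 or 3 or TEM YFP+ library 3) and 0.069 for Fads3 (without naive YFP- library 1 or 3 or TEM YFP- library 1 or 3).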

How the results depend on the processing

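Of 1279 values of 52 single results under an alternative, 1103 kept direction and side of the threshold, 166 lost the call and 6 gained it. The 4 that changed sign were all of Scap between TEM and naive cells, which never passed: -0.0136 with TMM, -0.0128 with edgeR, -0.013 with edgeR and the replicate block, and -0.0003 without TEM YFP- library 1; leaving out each library gave Scap -0.0003 to 0.0425. Quantile normalization moved the median log2 difference between TEM and naive cells over all genes from 0.04 to -0.16. It gave 3 members higher and 16 lower in place of 6 and 9, 11 lower in YFP- cells, 10 lower in YFP+ cells and 3 higher in YFP+ TEM cells. Of all 15587 tested genes it called 4099 higher and 6675 lower on average. It called 5925 of them lower in YFP- cells, 4626 lower in YFP+ cells and 686 higher in YFP+ TEM cells. No member that passed changed sign under it. The replicate block gave 16 lower on average, 12 in YFP- and 12 in YFP+ cells, and 1 higher in the interaction. The shares of all tested genes called lower were 29.9%, 25.3% and 22.5%. The block changed no other count of members by over 1.5 times. Same-numbered naive and TEM YFP+ libraries did not all correlate above 0.1. edgeR with the replicate block gave 17, 13 and 11 lower, 4 higher in YFP+ TEM cells and 1 higher in the interaction. The shares of all tested genes in that fit are not given here, so these counts have no background beside them. edgeR and DESeq2 each gave 2 higher in YFP+ TEM cells, where 436 and 569 of all tested genes were higher. With only the libraries compared, or with no trend, 2 were lower in YFP+ cells, and with no trend 0 were higher in YFP+ TEM cells. With a log2 fold change of at least 1 asked for, 1 was higher and 1 lower on average, 1 and 1 in YFP- cells, 0 and 0 in YFP+ cells and 0 higher in YFP+ TEM cells. Leaving out each library gave 4 to 6 higher and 7 to 13 lower on average, 3 to 4 and 2 to 8 in YFP- cells, 3 to 5 and 1 to 7 in YFP+ cells, and 0 to 2 higher in YFP+ TEM cells (0 without TEM YFP- library 1 or 3 or TEM YFP+ library 1 or 3, and 2 without TEM YFP+ library 2). The causes were not tested. With 3 libraries a group, the 95% interval reached a median of 0.24 to either side on the log2 scale for the average and 0.35 within a fraction.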
